A study of Homo sapiens with 5 samples.

Results

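Peaks whose summit lay in an exon of a noncoding transcript were examined in RNA retrieved with SNHG5, a long noncoding RNA (lncRNA), from HCT116, a human colorectal carcinoma cell line. A peak was taken when its summit fell in an exon of a noncoding transcript of the GENCODE basic set on GRCh37 and in no coding sequence or untranslated region (UTR). Peaks inside the SNHG5 gene itself, the bait, at chr6:86360209-86388650 on the minus strand, were left out. These rules gave 37 of the 905 peaks retrieved with the Odd oligonucleotide pool (4.09%, 95% Wilson interval 2.98 to 5.58%) and 428 of the 8626 peaks retrieved with the Even pool (4.96%, 4.52 to 5.44%), which is 465 of 9531 peaks in all. All intervals cover counting error only, since reads without molecular identifiers are not independent molecules.

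RIA-seq (RNA interactome analysis and sequencing) captures a cross-linked RNA with biotinylated antisense DNA oligonucleotides and sequences the RNA that comes with it. All cells carried the SNHG5 of the line itself, with no vector or knockdown named in the labels, and were cross-linked in glutaraldehyde. Odd was sequenced as 2 libraries, Even as 1 and the control as 2, which were pooled. The sample labels call the controls input, whereas the methods describe a pool against luciferase as the reference, and the lists do not settle which was used. One list was deposited per pool, with 1 value per peak and none per replicate, so that no value below has a replicate error and no test over samples was possible. Odd and Even oligonucleotides are complementary to the same bait, and both lists share the same controls. A list of peaks gives no expression levels, so the identity of the HCT116 cells was not checked against marker genes.

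After the limit on duplicate tags, 4904959 Odd, 1965614 Even and 3986040 control tags were left. Because the Even library was the smallest, its pileup, which is the number of extended tags over the summit, was scaled up to the control by a factor of 2.03, whereas for Odd the control was scaled up by 1.23. Fold enrichment is the ratio of the pileup to the local control level, as the authors deposited it. None of the 37 Odd peaks rested on fewer than 10 tags, but 238 of the 428 Even peaks did (55.6%). The 905 Even peaks with the smallest p, as many as the Odd list holds, are therefore given beside the whole Even list and are called the top Even peaks. They contained 53 noncoding-exon peaks (5.86%, 4.50 to 7.58%), none of which rested on fewer than 10 tags.

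Long noncoding RNAs are transcripts without a long open reading frame. Some of them, including SNHG5, are host genes that carry small nucleolar RNAs (snoRNAs) in their introns, while the spliced exons leave as a separate RNA. Processed pseudogenes are copies of mRNAs that were reverse transcribed and inserted elsewhere in the genome, without introns, and short reads of the parent mRNA can resemble them closely. Small RNAs of the housekeeping kind, such as ribosomal RNA, 7SL and 7SK, are abundant in every cell and have many copies in the genome.

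The sequences around the peaks were set against the bait first, since a noncoding exon that contains a stretch of SNHG5 could pair with an antisense oligonucleotide. Shown are 30-base stretches with the longest run shared with the spliced SNHG5 RNA, read 5′ to 3′ on the strand of the noncoding transcript. Capitals mark the bases identical to SNHG5. SNHG5 was taken as its shortest annotated form with 6 exons, 451 nt long, with positions counted from 1 at its 5′ end. The Odd peaks shown are those also overlapped by a top Even peak and those with a run of at least 12 nt.
ENSG00000288834 (chr22:50024787-50024816): ttctctgtttCTCTGAAGATttgaactgag
ENSG00000261096 (chr2:232674873-232674902): ttcccattgTAGAGGCCAGAaaagctgccc
ENSG00000272405 (chr1:156614368-156614397): ttgggagaggAGTGGCACAaccagatgctt
SNHG17, exon 1 peak (chr20:37063865-37063894): atttttcccaCGCTGTCTGtcaggtctccg
SNHG17, exon 8 peak (chr20:37049151-37049180): ggtaggccatAGGCCAGATctgattttcac
NUTM2A-AS1 (chr10:89092692-89092721): ttctcaattATAGAGGCCAGAagaccaaaa
ENSG00000273618 (chr14:24001307-24001336): ctaagggaGACTGACTAGCAGCagccccct
ENSG00000225898 (chr7:93407393-93407422): tgaaccgtGTGCCACGAGGTTcatgagcac
CNTNAP3B (chr9:43915264-43915293): gaaggaacGAGGGTCGCTGTCTtgcagatg
AL953854.2 (chr9:47304607-47304636): gaaggaacGAGGGTCGCTGTCTtgcagatg
The stretches of CNTNAP3B and AL953854.2 are the same sequence at separate places of chromosome 9. In NUTM2A-AS1 the run matched bases 296 to 307 of the bait and in ENSG00000261096 bases 297 to 307. In the exon 8 peak of SNHG17 it matched bases 300 to 308, so that the 3 runs overlap on SNHG5. The SNHG17 run, of 9 nt, was no longer than the median of 10 nt over Odd exon peaks. On the opposite strand this SNHG17 peak had a longer run, of 12 nt. Around the summits of the overlapping Even peaks of SNHG17, the same-strand run was 12 nt at exon 1 and 8 nt at exon 8.

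For the Even list, the runs are shown for NEAT1, a lncRNA that scaffolds nuclear paraspeckles, and for the 3 members with the longest run, 14 nt.
NEAT1 (chr11:65192485-65192514): gggtggtggGGGTGGTAGGAAatgcaggtt
API5P1 (chrX:115238297-115238326): caaaagagAGCCAGTGAAGATAcaacttca
PTBP1P (chr14:65747616-65747645): gcttcaagAACTTCCAGAACATattcccgc
RPL36AP33 (chr9:35507719-35507748): gccgatttTCCAGAAAAAAGCTaaaactac
The last 3 are copies of the mRNAs of API5, an inhibitor of apoptosis, PTBP1, a splicing regulator, and RPL36A, a ribosomal protein.

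A run of at least 12 nt within 250 bp of the summit was present in 5 of the 37 Odd members (13.5%, 5.91 to 28.0%), beside 14.8% of all Odd peaks in exons of known strand outside the bait. In the Even list 30 of 428 members had such a run (7.01%, 4.95 to 9.83%), beside 6.41% of all Even exon peaks. Runs on the opposite strand were counted too. There the transcript itself carries the same bases as the oligonucleotides rather than their complement. The counts were 3 Odd members (8.11%) against 4.52% over all Odd exon peaks, and 12 Even members (2.80%) against 3.16% over all Even exon peaks. The share in noncoding exons was thus near that of exons in general in the Even list and on the same strand in the Odd list. The 3 Odd members on the opposite strand, with an interval of 2.8 to 21.3%, are too few to place. CNTNAP3B and AL953854.2, both among the 5 Odd members, carry the same stretch.

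The runs fell in part on the same segments of the bait in the 2 lists and in part on others. With a minimum of 10 nt, 22 of the 37 Odd members had a same-strand run. Of these, 6 lay between bases 51 and 100 of SNHG5, 6 between 301 and 350, and 0 between 201 and 250, a 0 that allows up to 3 peaks. Among the 53 top Even members 22 had one as well, of which 5 lay between bases 51 and 100, 9 between 201 and 250 and 1 between 301 and 350. Over all 428 Even members 144 had a run, with 30, 29 and 15 in these 3 segments. In coding sequences and UTRs, the segment from 51 to 100 was matched by 44 Odd and 30 top Even peaks. There, 58 of 428 Odd peaks had their run between bases 301 and 350 and 15 between 201 and 250, whereas 16 and 50 of 368 top Even peaks did. On the opposite strand, 17 of those Odd peaks had their run between bases 201 and 250 and 10 between 301 and 350, and 4 and 9 of the top Even peaks did. These bins were chosen after the runs were located, and their relation to the places of the oligonucleotides was not tested.

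Sorted by the gene type of the exon, the 37 Odd peaks held 21 in lncRNAs (56.8%, 40.9 to 71.3%), 13 in pseudogenes (35.1%, 21.8 to 51.2%), 3 in other genes and 0 in small RNAs. That 0 allows a share of up to 8.11%. In the Even list the order of the large classes was the opposite, with 270 pseudogene peaks (63.1%, 58.4 to 67.5%) and 144 lncRNA peaks (33.6%, 29.3 to 38.2%), besides 7 small RNA peaks (1.64%) and 7 others. The top Even peaks resembled the whole Even list, with 36 pseudogene, 15 lncRNA, 1 small RNA and 1 other peak. Where a summit lay in exons of several classes, small RNA was taken first, then pseudogene, then lncRNA. With lncRNA first, the Odd shares were 64.9% lncRNA and 27% pseudogene. With any overlap of the whole peak in place of the summit, over 39 Odd peaks, they were nearly level, at 48.7% and 46.2%. Of the 270 Even pseudogene peaks, 223 were in processed pseudogenes and a further 16 in processed pseudogenes annotated as transcribed. The Odd pseudogene peaks comprised 9 processed, 1 transcribed processed and 3 transcribed unprocessed copies.

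The median fold enrichment in noncoding exons lay between that in coding sequences and that in introns in both whole lists, but not among the top Even peaks. The median was 19.3 in the Odd members, from 4 to 148.2, beside 22.8 in the whole Odd list, 11.7 in coding sequences and 46.7 in introns. For Even it was 9.13, from 1.1 to 232.1, beside 9.47 in the whole list, 6.94 in coding sequences and 11.6 in introns. Among the top Even peaks the noncoding exons had a median of 13.1, below the 15.1 of coding sequences, the 18.3 of UTRs and the 69.9 of introns. The lncRNA peaks had a median of 22.8 for Odd and 10.5 for Even, and the pseudogene peaks 15.4 and 6.08. The control level under the peak, obtained as pileup over fold, went the other way in the Even list, where its median was 0.658 in lncRNAs and 3.95 in pseudogenes. In the Odd list these values were 2.46 and 3.69. A high ratio over few control tags and a lower one over many are therefore both present, and the part of the control level in the order of the folds was not tested. Small RNA peaks, with a median fold of 9.47, rested on fewer than 10 tags in 4 of 7 cases.

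With each summit counted under 1 gene, SNHG17 was the only gene with more than 1 member in the Odd list, and had the most members, 5, in the Even list. Like SNHG5 it is a snoRNA host gene. It lies at chr20:37048285-37064052 on the minus strand, and the annotation places SNORA71D, SNORA71C, SNORA71A and SNORA71B, snoRNAs that guide pseudouridylation, between its ends. The larger Odd peak, at chr20:37049089-37049748, had its summit in exon 8 of a transcript with 9 exons, with a pileup of 948 over a control level of 218.9, or 4.33-fold. The Even peak at the same exon, at chr20:37048234-37049982, reached a pileup of 1723 over 275.7, or 6.25-fold, and was the best of all Even noncoding-exon peaks by p, at rank 33 of the list. At the first exon, the Odd peak at chr20:37063617-37064114 had a pileup of 306 and was 6.72-fold enriched. The Even peak there had a pileup of 308 and was 11.42-fold enriched. Both Odd folds were below the median of 19.3 over the Odd members, and 218.9 was the highest control level of any Odd member.

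Both ends of SNHG17 were thus retrieved with both pools, and 3 further Even peaks lay between them. Their folds were 2.52, 2.14 and 1.73 at 4326, 7682 and 13250 bp from the 5′ end of the gene, where the summits of the shared peaks lay at 187 bp (Odd) and 333 bp (Even) and at 14709 and 14556 bp. None of the 48-nt words around any of the 7 SNHG17 summits had another copy in the genome. Of 33 annotated genes on a list of noncoding host genes, drawn up by name, SNHG17 alone had members in either peak list. No share over lncRNA genes in general is given beside this count, so it does not set host genes apart. A summit in an exon of DANCR, another host gene, was shared with the overlapping ENSG00000248375 and was counted under the latter, with a fold of 17.24 and a pileup of 34 in the Even list. The other peaks inside host genes, in SNHG14, SNHG20, SNHG31 and ZFAS1, were Even peaks in introns.

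Of the 37 Odd members 16 were overlapped by an Even peak (43.2%), beside 39.8% of the whole Odd list. In every one of the 16 the Even peak was also a noncoding-exon peak of the same gene, and the summits lay at most 153 bp apart, with a median of 43. With the top Even peaks alone the count was 5 of 37, beside 13.1% of the Odd list. Seen from the Even list, 16 of 428 members were overlapped by an Odd peak (3.74%), beside 4.32% of all Even peaks. Shares near those of the lists show nothing particular to noncoding exons. By class, 12 of 21 lncRNA, 3 of 13 pseudogene and 1 of 3 other Odd members were overlapped.

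The 5 with a top Even peak were both SNHG17 peaks and 3 single-exon lncRNAs known by their identifiers. ENSG00000288834 (Odd peak at chr22:50024252-50024929) had a pileup of 239 and a fold of 64.74 with Odd and 83 and 23.89 with Even. ENSG00000261096 (chr2:232674632-232675257) had 169 and 45.78 with Odd and 95 and 31.77 with Even, with summits 2 bp apart. In ENSG00000272405 (chr1:156614009-156614709), which runs antisense within BCAN, the gene of a brain proteoglycan, the values were 384 and 8.21 with Odd and 162 and 4.51 with Even. None of these 5 places held a repeated 48-nt word.

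The other 11 rested on weaker Even peaks. PRNCR1, a lncRNA of the gene desert on chromosome 8, had a fold of 34.33 with Odd and 14.98 with Even. ENSG00000279348, whose gene type is still to be experimentally tested, had 34.27 and 12.88. N4BP2L2-IT2, an intronic transcript of N4BP2L2, had 27.24 and 11.99, and ENSG00000260948 had 29.26 and 12.17. GABPB1-AS1, antisense to a subunit of the transcription factor GABP, had 6.58 and 3.13, and ENSG00000286078, at a summit that also lay in an exon of LINC00963 on the opposite strand, had 7.29 and 2.87. LINC00863 was the exception among them, at 21.94 with Odd and 24.33 with Even. ENSG00000291075 had 22.75 and 9.71, and here 89.4% of the 48-nt words had another copy. The shared pseudogenes were HSPA5P1 (4 and 1.87), MFFP2 (19.77 and 6.49) and ENSG00000261278 (15.44 and 9.46).

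Fold enrichment was higher in Odd than in Even for 13 of the 16 (81.3%), the exceptions being LINC00863 and both SNHG17 peaks. Over all 360 Odd peaks with an Even overlap it was higher in Odd for 318 (88.3%), so that the direction was that of the lists. Besides the shared peak counted under ENSG00000286078, LINC00963, a lncRNA on chromosome 9, had a member of its own in each list at separate places, as did NUTM2A-AS1. For LINC00963 these had a pileup of 110 and a fold of 11.17 with Odd and 113 and 11.36 with Even, and for NUTM2A-AS1, where 58.2% of the 48-nt words around the Odd summit had another copy, 32 and 26.00 with Odd and 6 and 10.49 with Even.

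The 3 lncRNA peaks of largest Odd fold were not overlapped by an Even peak, whereas 5 of the 8 largest were. The 3 were ENSG00000273618 (70.33, pileup 45, control level 0.640), ENSG00000236540 (69.08, pileup 85, control level 1.23) and FTX (69.02, pileup 53, control level 0.768). FTX is a lncRNA of the X-inactivation centre, and its summit also lay in an exon of JPX. ENSG00000273618 carries the 14-nt run printed above. Both ENSG identifiers lie within protein-coding genes on the opposite strand, ZFHX2 and TANGO2. In the Even list ENSG00000285527, at chr16:87165852-87167049 and antisense within C16orf95, had the largest fold of all members, 232.1, with a pileup of 99 over a control level of 0.427, less than 1 control tag. MIR4435-2HG, the host gene of a microRNA, came next among the Even lncRNAs, with 118.9 and a pileup of 103. LINC02245 and ENSG00000255462 both had 66.31 and a pileup of 28. USP2-AS1, antisense to the gene of a ubiquitin protease, had 62.86 and a pileup of 62, and ENSG00000224635, which lies beside SNHG17, had 60.60 and a pileup of 52. In these Even peaks the control level was under 1 tag. ENSG00000270165, within RANBP10, and ENSG00000282057, within DDAH1, completed the 8 lncRNA peaks of largest Even fold, both at 56.84 and a pileup of 24 and both on the strand of the coding gene around them.

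Odd lncRNA peaks not yet named were 4. ENSG00000291171 had a fold of 26.82 at a pileup of 33, ENSG00000255946 19.32 at 34, ENSG00000246465, antisense within SBK1, 19.10 at 47, and MYADM-AS1, antisense to MYADM, 13.67 at 35. None of these 4 had an Even peak over it, and none held a repeated 48-nt word. CNTNAP3B and AL953854.2, both protein-coding genes with a noncoding transcript at the summit, had folds of 14.02 and 10.89, with 89.4 and 100% of the 48-nt words repeated, so that reads of the one cannot be told apart from reads of the other.

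Among 24 well-studied lncRNAs, members were found for FTX in the Odd list and for NEAT1, H19, KCNQ1OT1 and OIP5-AS1 in the Even list. No share over lncRNA genes in general is given beside these counts either. NEAT1, at chr11:65191720-65193258, had a pileup of 352 over 48.9, or 7.20-fold, and was a top Even peak. H19, an imprinted lncRNA, had a fold of 6.99 at a pileup of 10. The peaks of KCNQ1OT1, an imprinted antisense transcript of KCNQ1, had 10.36 and 5.83 at pileups of 8 and 10, and OIP5-AS1 had 2.28 at a pileup of 36. The summit of an Even peak in the pseudogene IFNWP19, with a fold of 27.97 at a pileup of 16, also lay in an exon of MIR31HG, another of the 24. FTX also held 3 Even peaks, all in introns. MALAT1, an abundant nuclear lncRNA, held no peak of either list.

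Pseudogene peaks were compared with the mRNA each copy resembles. Among the 270 Even pseudogene peaks, 207 (76.7%) matched a coding transcript with at least 90% identity over at least 250 nt, with a median identity of 95.2%. The matched mRNA itself carried a peak of the Even list for 119 of the 207 (57.5%, 50.7 to 64.0%). Of the 36 copies among the top Even peaks 34 had such a match, and for all 34 the mRNA carried an Even peak. The 207 copies matched 141 distinct mRNAs and the 34 matched 18, so that some mRNAs were counted repeatedly. A peak over any exon of the mRNA's gene was counted, also away from the aligned place. No share over coding genes in general is given beside these values. In the Odd list 10 of 13 copies matched, and for 9 of the 10 the mRNA carried an Odd peak, HSPA5 being matched by 2 of them. Fold enrichment of the copy and of the highest peak of its mRNA lay within a factor of 2 of each other in 79 of the 119 Even cases and in 4 of the 9 Odd cases. The copy was above that range in 26 Even and 3 Odd cases and below it in 14 and 2. A lncRNA peak matched a coding transcript this closely in 6 of 144 Even cases and 0 of 21 Odd cases, a 0 that allows up to 3 peaks.

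The copies of PRELID1, whose product moves phospholipids within mitochondria, and of HNRNPA3, an RNA-binding protein, are shown beside the mRNA, since short reads must be told apart on such differences. Printed are 30 bases of each coding sequence and the same place in each copy with a pileup of at least 100, taken where the copies differ most within 1 exon, up to 4 bases per copy. Capitals mark bases that differ from the mRNA.
PRELID1 mRNA (chr5:176733109-176733138): ttgcccgattcaaaagcaacgtgaccaaga
PRELID1P6 (chr2:63849494-63849523): ttgcccAGttcaaaagcaacgtgaccaaga
PRELID1P5 (chr1:211381023-211381052): ttgccTgGttcaaaagcaaTgtgaccaaga
PRELID1P1 (chr6:126965225-126965254): CtTGccgGttcaaaagcaacgtgaccaaga
PRELID1P3 (chr10:65187499-65187528): ttgcccAGttcaaaagcaacgtgaccaaga
PRELID1P4 (chr15:35413810-35413839): ttgcccAGttcaaaagcaacgtgaccaaga
HNRNPA3 mRNA (chr2:178082520-178082549): atggtggaggtggaggatatgatggttaca
HNRNPA3P6 (chr3:75264554-75264583): atggtggaggtggaggatatgatggttaca
HNRNPA3P3 (chrX:139115413-139115442): GtggAggTggtggaggatatgatggttaca
HNRNPA3P5 (chr13:66362264-66362293): GtggAggTggtggaggatatgatggttaca
ENSG00000232499 (chr1:113993126-113993155): GtggAggTggtggaggatatgatggttaca
HNRNPA3P1 (chr10:44284897-44284926): GtggCggTgTtggaggatatgatggttaca
HNRNPA3P13 (chr4:83050586-83050615): TtggCggTggtggaggatatgatggtCaca
In these stretches PRELID1P6, PRELID1P3 and PRELID1P4 have the same bases, as do HNRNPA3P3, HNRNPA3P5 and ENSG00000232499, and HNRNPA3P6 has 0 differences from the mRNA.

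The 5 PRELID1 copies had Even pileups from 492 in PRELID1P6 through 350 in PRELID1P5, 275 in PRELID1P1 and 137 in PRELID1P3 to 103 in PRELID1P4. Their folds ran from 12.32 to 17.24, beside 14.53 and a pileup of 433 at the highest peak of the PRELID1 gene. The copies with pileups above 200 were 96.4 to 97.2% identical to the mRNA and the others 91.1 and 94%. For HNRNPA3, 7 copies matched closely, with pileups from 6 to 553 beside 525 at the gene. Its copies HNRNPA3P6, HNRNPA3P3 and HNRNPA3P5 had 553, 511 and 511, close to that of the gene itself. WBP11, which encodes a splicing factor, had 4 peaks in its copies WBP11P1, WBP11P2 and WBP11P3 with folds of 6.76 to 49.58 beside 34.47 at the gene, and both copies of API5 were enriched, API5P1 29.28-fold and API5P2 40.56-fold beside 22.81-fold at API5.

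NPM1, the gene of nucleophosmin, an abundant nucleolar protein, was the mRNA with most copies, 9 matching closely. NPM1P27, 99.0% identical, had a pileup of 959 over a control level of 363.3, or 2.64-fold, where the NPM1 gene reached 261 and 2.67-fold. In the families with at least 5 Even copies that aligned over at least 250 nt, the pileup went with identity. Spearman's rho over the copies of a family was 0.93 for HNRNPA3 (8 copies), 0.62 for NPM1 (14), 0.80 for PRELID1 (5), 0.76 for PSMC1 (7), which encodes a proteasome ATPase, and 0.90 for RPS26 (5), a ribosomal protein gene. The control level went with identity too, with rho from 0.63 for NPM1 to 0.90 for RPS26. These points share a library and near-identical sequence, and the correlations are given as a description. The part of reads of the mRNA in the peaks of its copies was not tested.

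Not every family had a peak at its mRNA. Copies of EEF1A1, the translation elongation factor, had pileups from 920 to 1741 and folds of 1.30 and 1.31, and neither EEF1A1 nor RPS26 nor RPS27 carried an Even peak. Ribosomal protein pseudogenes with an RPL or RPS name had 21 members in the Even list and 0 in the Odd list, of 1603 in the annotation. With 37 Odd members that 0 allows up to 3 peaks, so it does not set the pools apart. No share over pseudogenes in general is given beside these counts. Copies known by an identifier alone, such as ENSG00000240388 of RPS18 with a fold of 9.13, were not counted. The median fold of the 21 was 1.66 over a median control level of 134.6. In 18 of the 21 a coding transcript matched closely, but for none did that mRNA carry an Even peak. RPLP0P6 had the lowest fold among them, 1.12, at a pileup of 906 over 808.9. Copies of mitochondrial genes on chromosome 1, whose mitochondrial mRNAs did carry Even peaks, had small folds too, with MTCO1P12 at 1.33-fold and a pileup of 1770, MTCO2P12 at 1.64-fold and MTATP6P1 at 1.47-fold and 1.1-fold. In the members named here the fold was thus small where the control level was high. This order is partly fixed in advance, since the fold is a ratio to the control level. The duplicate limit also holds the Even pileup to at most 2352, so that no large fold was possible over the highest control levels.

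The pseudogene peaks of largest Even fold were ENSG00000228940 (80.52) and CEP170P1 (66.31), both over a control level of 0.422, less than 1 control tag. At the former the summit also lay in ENSG00000286668, and at the latter 70.5% of the 48-nt words had another copy. ENSG00000258503 followed below WBP11P1 with 47.37, HLA-L, of the HLA class I cluster, with 42.63 and PSMC1P12 with 34.96. Apart from WBP11P1, API5P2 and WBP11P3, the 8 peaks of largest fold in this class had pileups of 18 to 34.

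In the Odd list COILP1 had the largest fold of all noncoding-exon peaks, 148.2, with a pileup of 70. It is a copy of the mRNA of coilin, the marker protein of Cajal bodies. The control level at COILP1 was 0.472, less than 1 control tag. The COIL gene itself had an Odd pileup of 650 and a fold of 52.82. FAM86FP, an unprocessed copy, had 61.09 and a pileup of 215, and 61.2% of its 48-nt words had another copy. FAM86DP, a relative of it, had 19.10 and a pileup of 47 and matched EEF2KMT, the single close mRNA without an Odd peak. SHLD2P1 had 15.12 at a pileup of 93, and here 89.4% of the 48-nt words had another copy. PEBP1P2 had a pileup of 272 and a fold of 7.37, beside 268 and 3.57 at PEBP1. ALDH7A1P1 had 128 and 6.93, beside 95 and 15.44 at ALDH7A1. The copy of IST1, an ESCRT protein (ENSG00000267422), had a pileup of 55, beside 104 at the gene. HSPA5P1 and ENSG00000250746, both copies of HSPA5, the chaperone BiP of the endoplasmic reticulum, had pileups of 310 and 305 beside 823 at HSPA5. ENSG00000225898 (78.34, over a control level of 0.472), which resembles TSN with 81.8% identity, fell outside the close matches.

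The 7 small RNA peaks were all from the Even list. MT-RNR1, the ribosomal RNA of the small mitochondrial subunit, had the highest pileup of all members, 2352, which is the highest that the duplicate limit allows, so that its fold of 1.35 is a ratio at this ceiling. The peak spanned 3482 bp, from 649 to 4130, whereas MT-RNR1 ends at 1601, so that only the summit places it in this gene. These positions are uncertain by a few bases, since the mitochondrial sequence of hg19 differs from that of the annotation used. SCARNA5, a small Cajal body RNA within ATG16L1, had 2.12-fold at a pileup of 89, and the microRNA gene AP000318.1 had 3.83-fold at 34. The other 4 were copies of 7SL (RN7SL314P, RN7SL804P and RN7SL642P) and of 7SK (RN7SKP188), at pileups of 4 to 6 and folds of 9.47 to 14.21.

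Repeated sequence was called where, of the 48-nt words in the window of 250 bp to each side, 50% or more had another copy in the genome. It was present at 6 of 37 Odd members (16.2%, 7.65 to 31.1%), beside 5.39% of all Odd peaks with a reference sequence. For Even it was present at 64 of 428 (15%, 11.9 to 18.6%), beside 5.88% of all. Within the Even list it was more frequent in pseudogenes (52 of 270, 19.3%) than in lncRNAs (11 of 144, 7.64%), and the share was 2.14% in coding sequences. Intergenic peaks had a share of 25.4% in the Odd and 17.5% in the Even list, so that repetition was not particular to noncoding exons. Reads from such sequence cannot be assigned to 1 place with certainty.

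Finally, 15 of 37 Odd members (40.5%) and 145 of 428 Even members (33.9%) lay between the ends of a protein-coding gene. Of these, 7 Odd and 73 Even peaks were on the strand of that gene and 8 and 72 on the opposite strand. Whether the libraries kept the strand is not stated in the sources used here. Reads of a noncoding exon therefore cannot be told apart from those of an overlapping pre-mRNA or antisense transcript for these peaks. At 4 Odd and 16 Even summits more than 1 noncoding gene was annotated.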

How the data were processed

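Reads had been trimmed by the authors (cutadapt) and aligned across splice junctions (STAR, hg19). Peaks were called by them with MACS 2.0.9 at a p of 0.001, with a limit of 3 identical tags in Odd and 2 in Even. The Odd list comes from both Odd libraries and was reduced by the authors with IDR, a measure of reproducibility between replicates, whereas the Even list comes from 1 library and was not reduced. Per the file headers, the control is the same in both lists. The authors deposited, per peak, the pileup of extended tags at the summit as signal, the fold enrichment as the ratio of pileup to local control level, and the −log10 of its p-value. Their q-value columns were not used. MACS scaled the smaller dataset up, and a pileup divided by that factor is given as tags.

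Each summit was placed on GENCODE version 44 as mapped to GRCh37, an annotation later than the study. A coding sequence came first, then UTR, noncoding exon, intron and intergenic sequence. Repeated sequence was counted as 48-nt words with another copy in the genome. The sequence within 250 bp of each summit was aligned to coding transcripts with blastn 2.17.0 at an E-value of 1e-10, and a match of at least 90% identity over at least 250 nt was taken as close. Runs shared with spliced SNHG5 were the longest exact matches. No mitochondrial sequence is printed, since that of hg19 differs from the reference used, and the window of the single mitochondrial peak is approximate. Python 3.11.15, numpy 2.4.6, pandas 2.3.3, scipy 1.17.1, pysam 0.24.0, samtools 1.23.1 and matplotlib 3.10.9 were used, and the steps were tested on simulated data. Intervals of shares are 95% Wilson intervals. With 1 value per peak in each list, no test was run over peaks, which are not replicates.

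Named genes were those of Odd members overlapped by Even, the 8 of largest fold per class and list, and genes with at least 3 members in a list. Members of the gene lists in the text were named too (noncoding host genes, well-studied lncRNAs, housekeeping small RNAs, ribosomal protein pseudogenes by name). Copies of mRNAs outside these rules, genes shown for their shared runs, the other Odd members, LINC00963 and NUTM2A-AS1 were picked once their values were known. The members and lists were chosen with earlier results of these data known. Alternatives covered the annotation, the peaks compared, the pileup and p minimum, the overlap, the repeat threshold, the run length and window, and peaks inside coding genes. The values of 1 Odd pseudogene peak are not reported here.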

Additional observations from a re-analysis of the deposited data

How the results depend on the processing

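Of 60 alternative values 41 stayed close to the main one and 19 moved. With all transcripts in place of the basic set the Odd members rose from 37 to 57, and in the Even list the lncRNA share became 27.5% and the pseudogene share 45.8%. Without peaks inside protein-coding genes 22 Odd and 283 Even members were left. A −log10 p of at least 30 left 83 Even members, and the 905 Even peaks of smallest p held 53, with lncRNA and pseudogene shares of 28.3% and 67.9% and a median fold of 13.1. A pileup of at least 10 gave a median Even fold of 5.97. Repeated sequence at a threshold of 10% took in 35.1% of Odd and 40.9% of Even members, and a run of at least 10 nt 59.5% and 33.6%. For Even, a run of 12 nt within 100 bp was found in 3.97% and on the opposite strand in 2.8%. Odd members overlapped by Even fell from 16 to 5 with the Even peaks of smallest p and to 1 with those of largest fold, which overlapped 105 of the 905 Odd peaks (11.6%). The cause of these changes was not tested beyond what each alternative leaves out.

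No paired analysis was possible because each list holds 1 value per peak and none per replicate, so leaving out a replicate was not possible either. In the Even list, which was not reduced by IDR, 163 of 428 members rested on fewer than 5 tags.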
